A study of Mus musculus with 3 samples.

Results

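The Rab GTPases are the largest family of small GTPases that direct membrane traffic, and 59 of 21900 protein-coding mouse genes belong to it here. Members were chosen by symbol alone, as protein-coding genes named Rab followed by a number and at most 1 letter, so that regulators and effectors such as Rab3gap1 or Rab11fip3 were left out. A Tet2 peak was found in 12 of these genes in 1 or more of 3 libraries, and 47 had none. The libraries are biological triplicates of 1 group: bone marrow derived mast cells from C57BL/6 mice, grown for 4 to 6 weeks with 10 ng/ml interleukin-3 and 5 ng/ml stem cell factor. The cells carried FcεRI and Kit on their surface at a purity above 97.5%. They were cross-linked with ultraviolet light (400, then 200 mJ per square cm), and endogenous Tet2, an enzyme that oxidises 5-methylcytosine, was pulled down with an antibody so that the RNA bound to it could be sequenced (CLIP). No genotype, treatment or stimulus differed between the libraries, and neither an input library nor one with a control antibody was analysed here.

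A Rab protein switches between a GTP-bound form, which recruits effectors to a membrane, and a GDP-bound form, which is extracted and carried through the cytosol. Guanine nucleotide exchange factors (GEFs) switch it on, GTPase-activating proteins (GAPs) switch it off, and each Rab marks its own set of membranes. In mast cells, Rab proteins steer the movement, docking and release of the granules that hold histamine and proteases.

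Replicates 1, 2 and 3 held 3019, 2800 and 2377 peaks. Peak heights are the authors' normalized heights, expressed here in height units, of which a library holds 19213, 18270 and 15431. In each library the median height was 4 units, close to the lowest heights listed (2, 2 and 3 units). Checked against markers of the labelled cell type, 10 of 15 mast cell genes held a peak. In 7 of them, including Gata2, Slc18a2, Kit and Hdc, all 3 libraries had a peak. All 3 peaks of Cpa3, also among the 7, and 8 of the 35 Gata2 peaks lay in more than 1 gene span. Tph1, Mitf and Srgn each had a peak of 3 or 4 units in 1 library alone. No peak was found in Fcer1a, Ms4a2, Fcer1g, Cma1 or Mcpt4. Markers of macrophages (1 of 10), neutrophils (0 of 10), lymphocytes (0 of 10) and erythroid cells or megakaryocytes (1 of 10) had fewer genes with a peak. A count of 0 or 1 in 10 is near the 14.1% of all protein-coding genes. It does not show that other cell types were absent. The gene of the last list, Itga2b, an integrin chain, held 3, 4 and 3 peaks of at most 4 units, as many in all as Kit (8, 1 and 1). RNA levels were not analysed here, so whether a gene without a peak is expressed in these cells is not known from these data.

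Rab genes held 14, 17 and 11 peaks in replicates 1, 2 and 3, spread over 5, 8 and 7 genes. They took 0.385%, 0.367% and 0.279% of the summed height, or 0.344% ± 0.0569 (SD, n = 3). Counting any of the libraries, 12 members (20.3%) had a peak, where the share of all protein-coding genes was 14.1%. In single libraries the share was 8.47%, 13.6% and 11.9%, beside 8.55%, 8.04% and 7.02% of all protein-coding genes, so that in replicate 1 the family stood at the background. A peak in at least 2 libraries was found in 5 members (8.47%, background 6.35%), and a peak in all 3 in 3 members, Rab44, Rab14 and Rab8b (5.08%, background 3.16%). Without replicate 1, 5 members had a peak in both remaining libraries, since Rab2a and Rab37 then joined them. That rule asks for 2 libraries instead of 3, and no share of all protein-coding genes is given for it. The members were chosen with earlier results known, so these shares are descriptions and were not tested. Most member peaks were low: 29 of 42 stood at 3 or 4 units (69.0%, against 65.0% of the 7135 peaks in protein-coding genes), and 2 reached 10 units. A peak of at least 5 units was found in 5 members, Rab44, Rab14, Rab8b, Rab2a and Rab4b (8.47%, background 5.65%). None of the 42 lay in the span of another gene.

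**Figure D1:**
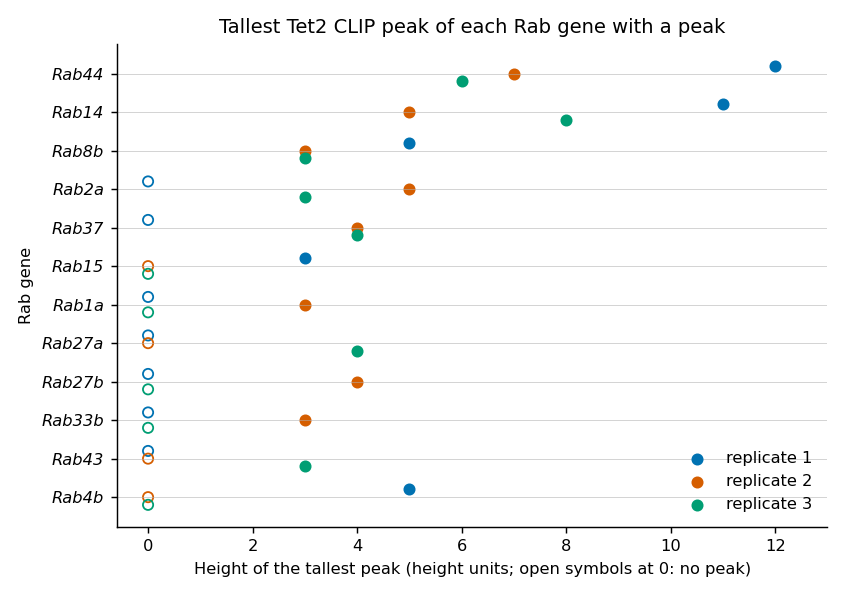
Height of the tallest Tet2 CLIP peak, in height units, in each of the 12 Rab genes with a peak (1 point per library, open symbols at 0 where a library has no peak). Rab44, Rab14 and Rab8b have a peak in all 3 libraries, Rab2a and Rab37 in 2, and the other 7 genes in 1.

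Rab44 held 10 of the 14 Rab peaks in replicate 1, 9 of 17 in replicate 2 and 5 of 11 in replicate 3. It encodes an unusually large Rab protein with an EF-hand calcium-binding region ahead of its GTPase domain, and it has been linked to granule release in mast cells. Its span lies on chromosome 17 (mm10, 29114128 to 29148980, 34853 nt) and held 24 of the 42 peaks of the family over the 3 libraries together (57.1%). The summed heights of its peaks were 50, 36 and 18 units in replicates 1, 2 and 3, or 0.260%, 0.197% and 0.117% of the library (0.191% ± 0.0720, SD, n = 3). Replicate 3, the library with the fewest peaks in all, was lowest on each of these measures.

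Over the 3 libraries together, 6 protein-coding genes held more peaks than Rab44: Gse1, Gata2, Csf2rb2, Col5a1, Kmt2d and Plec. At least 10 peaks were held by 0.251% of protein-coding genes and by Rab44 as the only Rab gene. In replicates 1 and 2, 6 genes held more peaks than Rab44, and in replicate 3, 15 did. Rab44 ranked lower by height than by number of peaks: 156 protein-coding genes had a taller single peak, and 17 of its 24 peaks stood at 3 or 4 units. Its tallest peaks reached 12, 7 and 6 units in replicates 1, 2 and 3 (8.33 ± 3.21, SD, n = 3). The peaks were 2 to 116 nt wide, with a median of 36.5 nt.

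All 24 Rab44 peaks lay in the upper-coordinate part of the span. The first midpoint lay 20183 nt from the lower-coordinate end, 57.9% of the way along, and the last lay 265 nt from the upper-coordinate end. Strand and exons of Rab44 were not analysed here, so the peaks are not assigned to exons, introns or untranslated regions. With gaps of over 1500 nt as borders, a distance chosen after the positions were seen, the peaks fell into 4 runs. The first, at chr17:29134300-29136346, held 4, 5 and 3 peaks in replicates 1, 2 and 3. The second, at chr17:29138048-29140249, held 4, 2 and 1. A single peak of 4 units in replicate 2 made up the third, at chr17:29144582-29144697. The last, at chr17:29147348-29148733, held 2, 1 and 1. All runs but the third thus held a peak in every library, though the borders were drawn from these same peaks. In the second run no position had overlapping peaks from every library, and replicate 3 had 1 peak of 3 units. A ribosomal protein pseudogene, Rpl35a-ps3, lies between the first and second runs (29136937 to 29137365), and no Rab44 peak overlapped it.

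**Figure D2:**
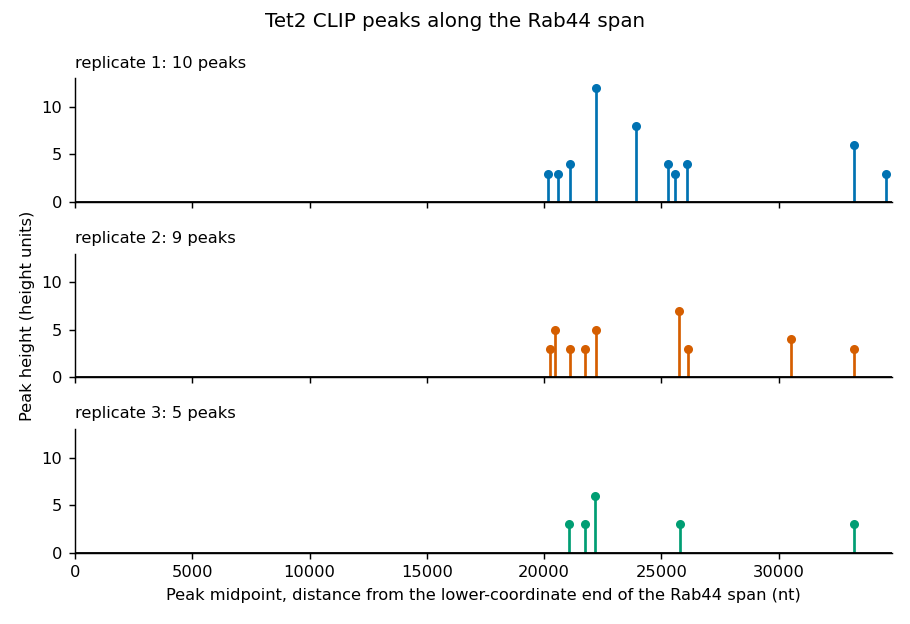
Tet2 CLIP peaks along the Rab44 span, with the distance of each peak's midpoint from the lower-coordinate end of the span in nt on the horizontal axis and peak height in height units on the vertical axis, 1 panel per library. The first 20183 nt hold no peak in any library, and 12 of the 24 peaks lie in the first run.

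Peaks that overlapped by at least 1 nt were joined into loci. Rab44 had 17 loci: 2 were found in every library, 3 in 2 libraries and 12 in 1. The share found in every library was 11.8% at Rab44, beside 10.6% of the 5242 loci in all protein-coding genes (556 loci). The first shared locus, chr17:29135179-29135266, stood at 4, 3 and 3 units and started at the same base in each library. The second, chr17:29147348-29147371, stood at 6, 3 and 3 units and also had a common start. The site of the tallest peak was shared less exactly. Replicate 1 had its peak of 12 units at chr17:29136326-29136327 and replicate 2 one of 5 units over a stretch that includes them, whereas in replicate 3 the peak of 6 units ended at 29136294. With peaks up to 100 nt apart joined as well, this site was present in all 3 libraries, at 12, 5 and 6 units. Rab44 then had 13 sites, 3 of them in every library. No share under this wider joining is given for all protein-coding genes, and the 10.6% does not serve as its background. A peak of 8 units at chr17:29138048-29138083 was found in replicate 1 alone.

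Rab14, which shuttles between the Golgi apparatus and early and recycling endosomes, carried the next tallest peaks. It stood at 11, 5 and 8 units in replicates 1, 2 and 3 (mean 8, SD 3, n = 3), with 1 peak in each library. The peaks shared 1 locus, chr2:35200841-35200875, on a gene that is transcribed from the minus strand (35180205 to 35201120). They were 35, 1 and 6 nt wide, and their midpoints lay 262, 247 and 250 nt from the 5′ end of the gene. At 5 units or more in every library, this was the only Rab locus shared by all 3 under the overlap of at least 1 nt. With peaks up to 100 nt apart joined, the Rab44 site of 12, 5 and 6 units also met that height.

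Rab8b, a Rab of transport from the Golgi apparatus and recycling endosomes to the cell surface, was the third member with a peak in every library. Its peaks stood at 5, 3 and 3 units (3.67 ± 1.15, SD, n = 3). All began at position 66919238 of chromosome 9 and ended at 66919288, 66919292 and 66919295. This placed their midpoints 442, 440 and 439 nt from the 5′ end of the gene, which is read from the minus strand (66843609 to 66919705). Rab14 and Rab8b thus each had a single site near the start of the gene, where Rab44 had many sites, none of them in the lower-coordinate 57.9% of its span.

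Among the other Rabs of secretion and granules, Rab37, Rab27a and Rab27b held peaks. Rab37, known from the secretory granules of mast cells, had 1 peak of 4 units in replicate 2 and 1 in replicate 3, and none in replicate 1. These peaks nearly coincided, at chr11:115154268-115154274 and chr11:115154267-115154274, 8502 and 8503 nt from the upper-coordinate end of its span. Rab27a, which docks granules at the plasma membrane, had a peak of 4 units in replicate 3 alone, 15071 nt from its 5′ end on chromosome 9. Rab27b, its close relative, had a peak of 4 units in replicate 2 alone, deep inside its span of 162503 nt on chromosome 18. The secretory and granule group thus had 5 of 14 members with a peak, and 2, 4 and 4 in replicates 1, 2 and 3, beside a background of 14.1% of protein-coding genes over all libraries. The group was not tested. The 9 without one were Rab3a, Rab3b, Rab3c and Rab3d, which act in regulated secretion, and Rab8a, Rab10, Rab12, Rab13 and Rab26.

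Of 5242 loci in all protein-coding genes, 3906 were found in 1 library, and 65.0% of the peaks stood at 3 or 4 units. Rabs of the endoplasmic reticulum and Golgi apparatus likewise held low peaks, mainly in single libraries. Rab2a, needed for traffic between these compartments, had peaks of 5 and 3 units in replicates 2 and 3 at a locus shared by both, chr4:8535816-8535908, and a further peak of 4 units in replicate 2 at chr4:8561152-8561170. The shared locus lay 399 and 385 nt from the lower-coordinate end of the gene (8535469 to 8607702). Rab1a, which tethers vesicles on the way to the Golgi apparatus, had 1 peak of 3 units in replicate 2, 228 nt from its 5′ end (chr11:20201628-20201653). Rab33b, a Golgi Rab with a part in autophagy, had 1 of 3 units in replicate 2, 685 nt from its 5′ end (chr3:51484593-51484710). Rab43 had 1 of 3 units in replicate 3, at chr6:87788985-87789108, 193 nt from its 3′ end. No peak of these 4 genes was found in replicate 1. The other 12 members of this group of 16 had no peak: Rab1b, Rab2b, Rab6a, Rab6b, Rab18, Rab19, Rab30, Rab33a, Rab34, Rab36, Rab39 and Rab39b. The group thus had 4 of 16 members with a peak, beside a background of 14.1% of protein-coding genes. This difference was not tested.

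Of 8 Rabs of recycling endosomes, Rab4b and Rab15 held a peak besides Rab14. Rab4b, which returns receptors quickly to the surface, had 1 peak of 5 units in replicate 1 (chr7:27175729-27175795), 3121 nt from its 5′ end. Rab15, a Rab of early and recycling endosomes, had 1 of 3 units in replicate 1 (chr12:76822588-76822701), 115 nt from the 5′ end of its span. Rab4a, Rab11a, Rab11b, Rab25 and Rab35 held none. Each Rab was counted in 1 group, so Rab14 and Rab15, which are also Rabs of early endosomes, counted under recycling alone. The Rabs listed under early endosomes had no peak in any library (0 of 8: Rab5a, Rab5b, Rab5c, Rab17, Rab20, Rab21, Rab22a and Rab31). Late endosome and lysosome Rabs had none either (0 of 8: Rab7, Rab7b, Rab9, Rab9b, Rab24, Rab29, Rab32 and Rab38). The same held for the remaining members, Rab23, Rab28, Rab40b, Rab40c and Rab42. The background of 14.1% amounts to about 1 gene in a group of 8, and none of these groups was tested.

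The Rab15 peak was the only one to fall in a RefSeq promoter window, which runs from 250 bases before a listed start to 50 after it (build GRCm38.p6, the coordinates of mm10). Such windows were matched for 48 of the 59 members. The peak lay before a start listed at 76822524 and inside the gene's annotated span, which reaches to 76822759. The central 30 bases of the peak are shown because they are the only sequence under a Rab peak in the sources used here. The strand of the RNA in a peak was not used, so whether the bound RNA had these bases or their complement is not known here. They are given 5′ to 3′ on the minus strand, the strand of the gene, at chr12:76822630-76822659, with CpG dinucleotides in capitals.
Rab15: gatccCGcccCGggCGgcCGCGgggacccc
These bases hold 5 CpG dinucleotides, and the whole peak of 114 nt holds 13, with 80.7% G and C. The peak rests on 1 library, at 3 units, a height that 1271 peaks of that library share.

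Distance from the 5′ end could be measured for part of the family. Strand was known for 8 of the 12 genes with a peak, and 9 of their 12 peaks lay within 1000 nt of the 5′ end of the span (75.0%). Among all peaks in protein-coding genes of known strand the share was 31.9%, and 7.67% lay within 1000 nt of the 3′ end, as did 1 of the 12 Rab peaks, that of Rab43. Counted by gene, 5 of 8 Rab genes (Rab14, Rab8b, Rab1a, Rab33b and Rab15) had such a 5′ peak, beside 44.3% of 2506 protein-coding genes with a peak. The 9 peaks came from 5 sites, since Rab14 and Rab8b each contribute 1 site in 3 libraries. The member just inside the limit was Rab33b (685 nt) and the one just outside was Rab4b (3121 nt). The 30 peaks of Rab44, Rab2a, Rab37 and Rab27b are not in these counts. On either strand, at most 2 peaks of Rab2a and 1 of Rab44 could lie within 1000 nt of the 5′ end. Over all 42 peaks the share is therefore between 21.4% and 28.6%, beside 31.9% of all peaks of known strand. Rab44 supplies 24 of the 42 peaks, so this range depends largely on that gene. Of the 18 peaks of the other members, at least 9 lay within 1000 nt of the 5′ end. The 75.0% covers the 8 genes of known strand alone. The difference from other genes was not tested.

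**Figure D3:**
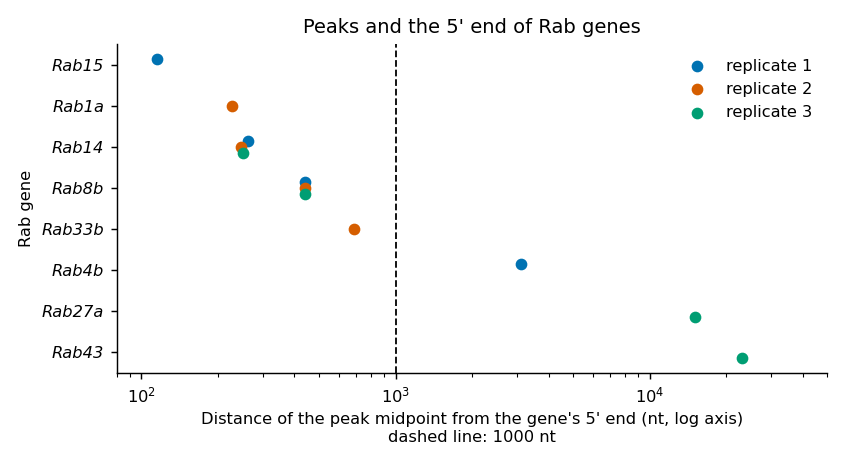
Distance of each peak midpoint from the 5′ end of its gene, in nt on a log axis, for the 8 Rab genes with a peak and a known strand, 1 point per peak and coloured by library. The peaks of Rab15, Rab1a, Rab14, Rab8b and Rab33b lie between 115 and 685 nt, left of the dashed line at 1000 nt, and those of Rab4b, Rab27a and Rab43 lie farther in.

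Spans were longer, by their medians, in genes with a peak than in those without. The median span was 30149 nt in the 12 Rab genes with a peak and 22457 nt in the 47 without. It was 29151 nt in all protein-coding genes with a peak and 15690.5 nt in those without. The part of span length in the share of Rab genes with a peak was not tested.

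The proteins that activate, switch off and read Rabs were also looked up. Each count is to be read beside the background of 14.1% of protein-coding genes, and 3.16% in all 3 libraries, and none was tested. Rab GEFs had 13 of 35 genes with a peak (37.1%) and 0 of 35 in all 3 libraries. Their tallest peaks were in Sbf1, a DENN-domain protein also known as MTMR5 (7 units in replicate 1 alone), Rin3, which activates Rab5-type proteins (6, 0 and 3 units) and Rinl (6 units in replicate 1 alone). Rabgef1, which also restrains FcεRI signalling in mast cells, had 1 peak of 3 units in replicate 3. Rab GAPs had 7 of 35 with a peak (20.0%). Tbc1d13 stood at 18 units in replicate 2 and had no peak in the other libraries. Tbc1d9b (4, 7 and 3 units) and Tbc1d1, a GAP of glucose transporter traffic (5, 4 and 3 units), had peaks in all 3.

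Rab effectors had 10 of 50 genes with a peak (20.0%). Unc13d, the Rab27 effector Munc13-4 that primes granules for release, held 5 peaks in all, reaching 11, 0 and 4 units. Golga2, the Golgi tether GM130, reached 9, 3 and 6 units, and Mical1 reached 5, 3 and 0 units. Rasef and Cracr2a, which encode the other large Rabs with EF hands, had no peak.

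Further small GTPase families are given for scale. The Arf, Arl and Sar family had 5 of 28 (17.9%), led by Arf6 (10, 10 and 0 units), Arl10 (5, 0 and 3 units) and Arl13b (0, 4 and 3 units). The Ras, Rap and Ral family had 3 of 22 (13.6%): Rit1 (7, 5 and 3 units), Rheb (5 units in replicate 3 alone) and Ralb (3 units in replicate 2 alone). Differences between these families and the Rab genes, at 20.3%, were not tested.

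**Figure D4:**
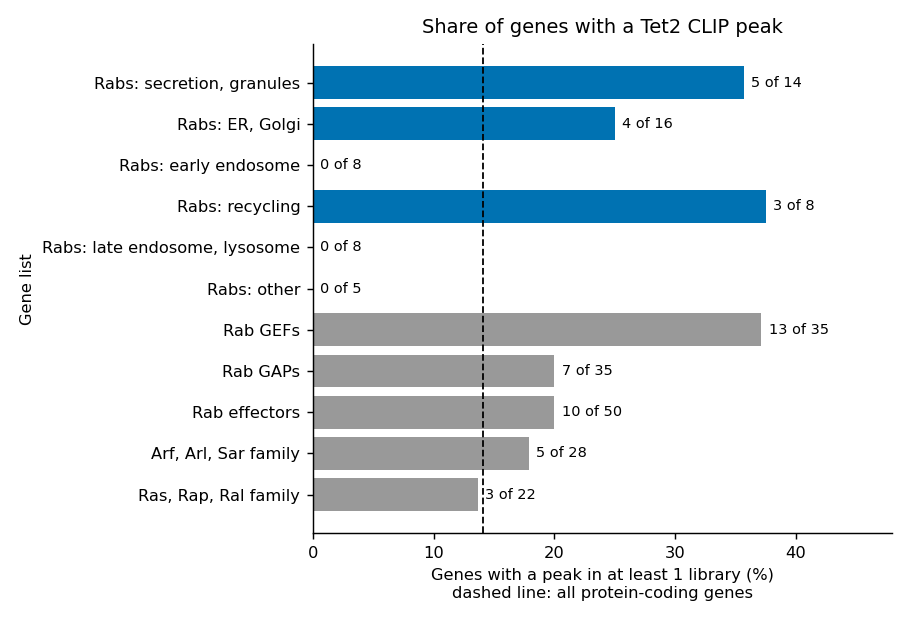
Percentage of genes with a Tet2 CLIP peak in at least 1 library, for Rab genes by role (blue) and for other lists of the pathway and other small GTPase families (grey), with counts at the bars and a dashed line at the 14.1% of all protein-coding genes. Secretory, Golgi and recycling Rabs stand right of the line, and the early endosome, late endosome and other Rabs have no gene with a peak. Each Rab is counted in 1 role, and Rab14 and Rab15, also of early endosomes, count under recycling.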

How the data were processed

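Per the labels' protocols, RNA cross-linked to Tet2 was fragmented with RNase I, pulled down, gel-purified and sequenced, and peaks were found in each library with a caller that looks for valleys on either side. The build mm10 and the tools cutadapt 1.9 and STAR 2.4.0i are named per the submitters' processing notes. The sources used here do not give the caller's version or thresholds. The values are a signal: the authors deposited the normalized height of each peak. They add up to 1 in a library and are whole numbers of a fixed step (100% of peaks within 0.05 of a step), so they are given in steps, called units. The sources used here do not say if a unit is 1 read, so depth is unknown and no interval or count test was used. Starts were read as 0-based and are printed 1-based.

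Gene spans came from RefSeq (GRCm38.p6), and strand from its promoter table. A peak belongs to each span that holds its midpoint, on either strand, as the strand of the RNA in a peak was not used. Lists were matched by symbol. Rab41, Dennd2b and Tpsab1 matched no protein-coding symbol in the RefSeq table. Members, roles and lists were chosen with earlier results of these data known. Every Rab gene with a peak is named, with the 3 tallest genes of each pathway or family list. Rabgef1 was named for its role after its values were seen. Some genes and lists are not reported here. No test was run, since the design has 1 group. The SD measures the spread between 3 libraries, for which no separate animals are named and which may be partly technical. Alternatives changed the assignment, the height minimum, the overlap and the libraries used. Scripts ran in Python 3.11.15 with pandas 2.3.3, and assignment and locus joining were tested on simulated data.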

Additional observations from a re-analysis of the deposited data

How the results depend on the processing

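Among 43 recomputed values of the main counts and shares, 34 stayed within 1.5 times the main count or 1 SD of the main value, and 9 moved. Leaving out peaks in several spans could change nothing, since no member peak lay in another gene's span. Any overlap as the rule, and starts read as 1-based, also left the recomputed counts and shares unchanged. With peaks of at least 5 units alone, 5 members held a peak, against 12, with 4.33 peaks per library, against 14, and 0.161% of the height, against 0.344%. Then 1 locus was shared by all 3 libraries, against 4 of 29 with peaks of every height (13.8%). In all protein-coding genes, 556 of 5242 loci of every height were so shared (10.6%), and no such share is given for peaks of at least 5 units. Without Rab44, a setting added after seeing the data, 6 peaks per library, 0.152% of the height and 2 shared loci remained. When each library was left out in turn, members with a peak in at least 1 library numbered 9 to 10, members with a peak in all remaining libraries 3 to 5, and shared loci 4 to 8, the highest values of the last pair being those without replicate 1. The last pair then asks for 2 libraries instead of 3, and no share of all protein-coding genes or loci is given for it. Peaks per library ran from 12.5 to 15.5 and the share of height from 0.323% to 0.376%. With a reciprocal overlap of at least 50%, 3 loci were shared, and with midpoints within 200 nt, 6. Spans extended by 1000 nt gave 15 members, and no share of all protein-coding genes is given for such spans. No tallest height of the 12 genes changed with any overlap as the rule or with extended spans. No paired analysis was possible because all libraries belong to 1 group. Heights of 3 units, at or next to the lowest listed, limit what a missing peak can show.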

Other observations

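Loci that share the Rab name but are not members were also looked up. Of 10 further protein-coding genes named Rab and a number, 3 held a peak, beside 14.1% of all protein-coding genes and 20.3% of the members: Rab3gap2, part of the GAP of Rab3 and a GEF of Rab18 (2 peaks in replicate 1 and 1 in replicate 3), Rab11fip3 (1 in replicate 1 and 1 in replicate 2) and Rab3ip, also called Rabin8, a GEF of Rab8 (1 in replicate 3). None of 5 Rab pseudogenes and none of 4 long non-coding genes named after a Rab gene held a peak, where 0.342% of all pseudogenes and 2.36% of all long non-coding genes did. Within 1000 nt outside their spans, 3 members without a peak of their own had 1 of 3 units: Rab13 (replicate 3), Rab24 (replicate 2) and Rab30 (replicate 1).

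CpG content was compared in the promoter windows of Rab genes, by medians. No window was matched for 4 members with a peak, Rab44, Rab2a, Rab37 and Rab27b. The median window of the other 8 members with a peak had 26 CpG dinucleotides in 300 bases (range 18 to 38) and 64.8% G and C. For the 40 members without a peak that had a window, the medians were 18.5 and 60.8%. Their range of 5 to 43 CpG spans that of the 8 and reaches below the median of other genes. Windows of the 17492 protein-coding genes in the table had a median of 13 and 56.3%, and those of 2506 protein-coding genes with a peak had 23 and 62.7%. These are values of genomic windows and not of the bound RNA, and the differences were not tested.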
